A study of Mus musculus with 12 samples.

Results

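A set of 10 genes of fibroblast growth factor (FGF) signalling was followed in mouse fetal and newborn male germ cells. They are 3 ligands (Fgf4, Fgf8 and Fgf9), 4 receptors (Fgfr1, Fgfr2, Fgfr3 and Fgfr4) and 3 feedback inhibitors (Spry2, Spry4 and Dusp6). The members were chosen by gene symbol and not by a rule on their values, though with earlier results of these data known. All 10 were found among the 55487 genes of the table. The study as a whole concerns the loss of Morc1, a gene of germ cell chromatin, and this series holds bulk RNA sequencing of gonocytes from the testis of Mvh-Venus transgenic mice, in which a fluorescent protein marks germ cells.

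The 12 libraries fall into 4 groups of 3: the embryonic stages E13.5 and E16.5, newborns (P0) and pups 3 days old (P3). The sample titles and source names call every group wild type, whereas the genotype field reads Morc1 (+/-) at E13.5 and P0 and Morc1 (-/-) at E16.5 and P3. If that field holds, genotype and stage cannot be told apart in any comparison of adjacent stages, nor between E13.5 and P3. Only E13.5 with P0, and E16.5 with P3, then compare stages of the same genotype. The allele is not described, so the Morc1 level does not check it: Morc1 had 1621 to 1830 normalized counts in the E13.5 libraries and 28328 to 32917 in those of E16.5, then 7280 to 7708 for P0 and 10584 to 11129 for P3. The labels give no strain and do not say whether the 3 libraries of a stage came from separate animals, so p-values measure only the spread between these samples.

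Fibroblast growth factors are secreted proteins that bind receptor tyrosine kinases together with heparan sulfate on the cell surface. The receptors act through the RAS and MAP kinase cascade on transcription factors of the ETS family, and the cascade in turn raises the Sprouty proteins and the phosphatase DUSP6, which dampen it. In the fetal testis FGF9 is known for its part in Sertoli cell development and in the male fate of germ cells, and after birth FGF signals act on spermatogonia.

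Each value below is a normalized count, the number of reads assigned to a gene divided by the size factor of its library. Libraries held 40946616 to 51533747 reads, and the size factors averaged 1.94 at P0, as against 0.939 at E13.5, 1.13 at E16.5 and 1.01 for the P3 libraries. Since the P0 factors stand apart, differences that involve P0 rest more on the scaling than others do. The 6 germ cell markers, Ddx4 and Dazl among them, summed to between 233195 and 258663 in every library of E13.5, E16.5 and P3, and to between 135719 and 142964 at P0. Over all genes, normalized counts likewise totalled 23044303 to 24866058 in the P0 libraries and 36124232 to 54397541 in the others. How far the germ cell sums differ at P0 thus depends on the scaling. The marker genes of 8 other cell types summed to 10.9% to 17.1% of the germ cell sum at P0, and to 2.51% to 3.04%, 3.48% to 7.14% and 1.94% to 2.61% in the E13.5, E16.5 and P3 libraries. At E13.5 Pecam1 alone, listed for endothelial cells, had 4326 to 5074 normalized counts of a sum of 6234 to 7726. In every library the germ cell sum thus exceeded that of the other cell types, which was highest relative to it at P0. Sums over chosen markers do not measure what part of the transcripts came from each cell type. In bulk RNA, fewer cells of a type and less RNA per cell cannot be told apart.

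A change below means a log2 fold change on the scale of log2(normalized count + 1), with its standard error (SE), and a gene is said to rise or fall where limma's test gave a Benjamini-Hochberg adjusted p under 0.05 over all 22384 genes tested. All 10 genes passed the filter on low values and the F-test over the 4 stages, as did 95.2% of all genes tested, so a change by itself does not set a member apart. From E13.5 to E16.5 all 10 changed, against 80.1% of all genes. Of them 3 rose and 7 fell, where 45.5% of all genes rose and 34.6% fell. In 9 of the 10 the libraries of the 2 stages did not overlap, which held for 80.2% of all genes. From E16.5 to P0 5 rose and 3 fell, 8 of 10 in all, against 61.0% of all genes, of which 27.6% rose and 33.4% fell. The libraries of these 2 stages stood apart in 8 members and in 69.5% of all genes. From P0 to P3 3 rose and 3 fell, 6 of 10 against 76.5% of all genes, of which 40.1% rose and 36.4% fell. Libraries did not overlap for 7 members and 81.0% of all genes. The median log2 fold change of the members was -1.16, 0.99 and -0.11 in these 3 comparisons, beside 0.31, -0.01 and 0.05 over all genes tested. Other scalings moved these splits. From E16.5 to P0 median-of-ratios factors gave 6 higher and 0 lower, beside 8541 and 5791 of 22735 genes tested. Equal library totals gave 7 higher and 0 lower, beside 12743 and 3443 of 23221. From P0 to P3 these 2 scalings gave 3 higher with 5 lower, beside 6684 and 10703 of all genes, and 3 higher with 6 lower, beside 4577 and 13565. From E13.5 to E16.5 median-of-ratios factors gave 3 members higher and 6 lower, beside 11357 and 6793 of all genes. Equal library totals gave 12911 genes higher and 5506 lower in that comparison. The falls of Fgfr1 and Fgfr3 were then not called (limma adjusted p = 0.743 and 0.834). TMM factors gave 7154 and 6732 of 22504 genes from E16.5 to P0, and 8146 and 9102 from P0 to P3. The list splits below stand beside these counts.

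**Figure D1:**
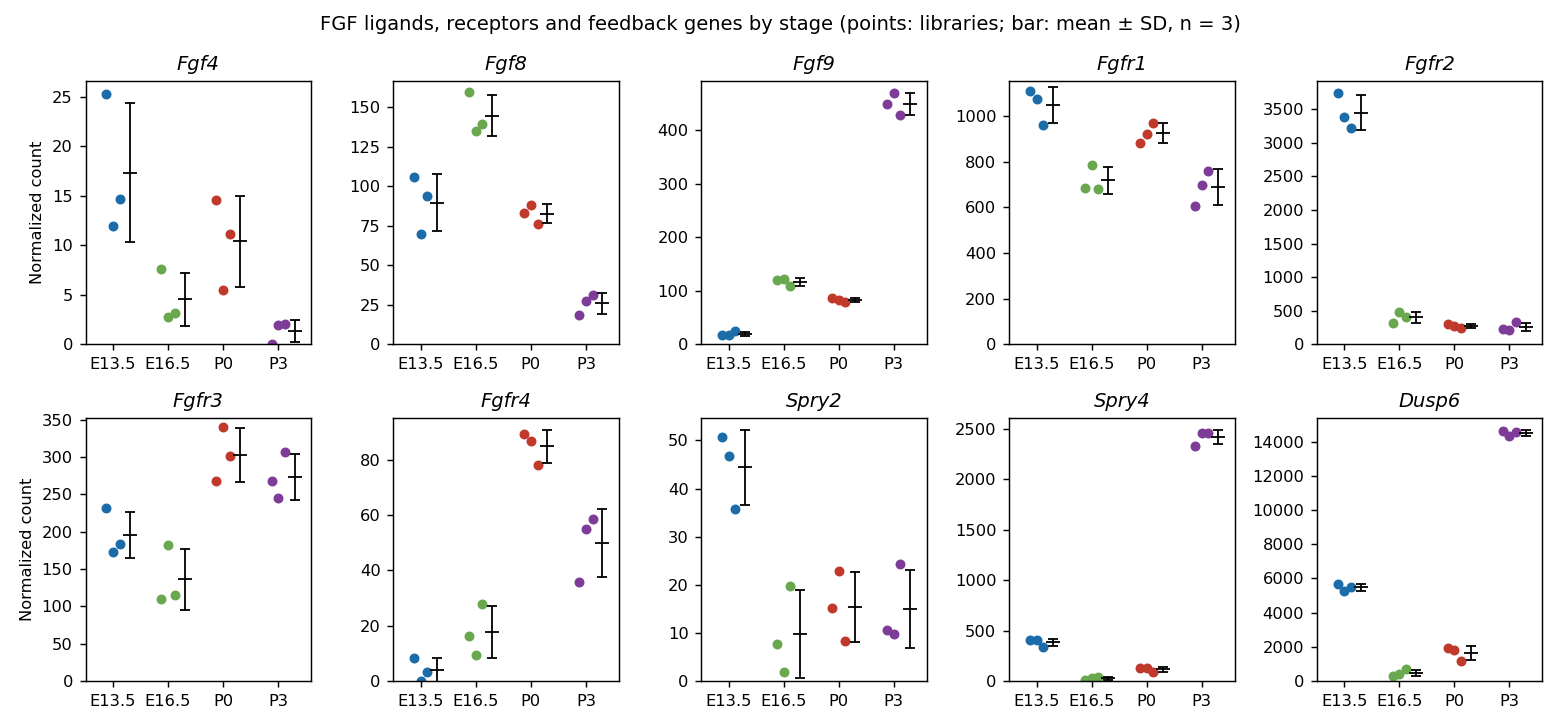
Normalized counts of the 10 genes by stage, 1 panel a gene, with linear axes that start at 0. Points are libraries, and bars are the mean and the SD over 3 libraries; Spry4 and Dusp6 dip at E16.5 and are highest at P3, while Fgfr2 is high at E13.5 alone.

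Before the single values, the DNA just upstream of the start of 4 members is shown, because these 4 fell by more than 1.5 on the log2 scale from E13.5 to E16.5 and their windows overlap no annotated exon. The windows are the 250 bases before the RefSeq gene start on GRCm38.p6, given 5′ to 3′ on the strand of the gene, and 7 of the 10 members had such an entry. They lie at chr10:99262981-99263230 (plus strand) for Dusp6, chr14:105896820-105897069 (minus strand) for Spry2, chr7:130266809-130267058 (minus strand) for Fgfr2 and chr7:144861136-144861385 (plus strand) for Fgf4. The Fgfr2 and Fgf4 windows fall within introns of longer GENCODE models of the same genes. Capitals mark 3 short motifs, read on either strand: an ETS core, a CCAAT box and a GC box.
Dusp6: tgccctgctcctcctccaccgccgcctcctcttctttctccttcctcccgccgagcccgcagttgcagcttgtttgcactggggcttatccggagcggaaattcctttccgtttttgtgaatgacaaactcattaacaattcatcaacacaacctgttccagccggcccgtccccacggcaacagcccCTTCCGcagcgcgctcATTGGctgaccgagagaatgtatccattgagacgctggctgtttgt
Spry2: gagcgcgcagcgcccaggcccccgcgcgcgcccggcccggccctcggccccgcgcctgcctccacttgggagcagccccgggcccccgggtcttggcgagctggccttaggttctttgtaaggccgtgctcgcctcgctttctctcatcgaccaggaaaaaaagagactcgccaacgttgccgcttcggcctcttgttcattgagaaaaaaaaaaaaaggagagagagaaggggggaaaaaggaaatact
Fgfr2: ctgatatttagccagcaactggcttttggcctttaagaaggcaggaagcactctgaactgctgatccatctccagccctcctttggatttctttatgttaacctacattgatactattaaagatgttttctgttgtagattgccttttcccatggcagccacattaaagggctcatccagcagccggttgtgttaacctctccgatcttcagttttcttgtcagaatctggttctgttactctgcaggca
Fgf4: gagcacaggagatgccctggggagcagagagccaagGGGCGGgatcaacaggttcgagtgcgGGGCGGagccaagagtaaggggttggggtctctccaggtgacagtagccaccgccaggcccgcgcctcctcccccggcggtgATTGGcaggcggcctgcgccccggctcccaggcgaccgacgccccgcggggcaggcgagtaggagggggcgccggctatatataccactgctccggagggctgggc
The Dusp6 window held 1 ETS core and 1 CCAAT box, the Fgf4 window 2 GC boxes and 1 CCAAT box, and the Spry2 and Fgfr2 windows none of these. Among 32851 windows of 250 bases before annotated starts, 13.6% held the ETS core, whose letters are CGGAAG, 33.8% held the CCAAT box, and 32.7% held the GC box, which was searched as GGGCGG. No 2 of these motifs overlap in the windows shown. The letters TATAAA, present in 12.4% of all windows, was in none of the 4. A match describes letters only. GC made up 56.4% of the Dusp6 window, 62.4% of the Spry2 window, 44.0% of the Fgfr2 window and 71.2% of the Fgf4 window.

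The 3 ligands took 3 different courses: Fgf9 was lowest at E13.5 and highest at P3, Fgf8 was highest at E16.5 and lowest at P3, and Fgf4 was scarce throughout. Fgf9 (ENSMUSG00000021974, chr14:58070547-58112720, plus strand) encodes a ligand required for testis development. In libraries 1, 3 and 4, the order kept in what follows, it had 17.9, 17.4 and 24.2 normalized counts at E13.5, and 119.3, 122.7 and 108.4 at E16.5. Its newborn values were 86.2, 82.1 and 79.6, and those of P3 were 448.7, 469.4 and 428.2. No 2 stages overlapped, E13.5 being lowest and P3 highest in all libraries. The mean rose from 19.8 ± 3.77 to 116.8 ± 7.46 (SD, n = 3) between E13.5 and E16.5, that is, by 2.51 on the log2 scale (SE 0.199, limma adjusted p = 4.73e-09). From P0 to P3 it rose by 2.43 (SE 0.199, limma adjusted p = 9.45e-09), and the P3 mean was 22.6 times that of E13.5. The rises at E16.5 and at P3 were called under every alternative tried. The dip from E16.5 to P0, by -0.49 (limma adjusted p = 0.0418), was not: under other settings the adjusted p ranged from 0.0076 to 0.456, TMM factors gave 0.104, and equal library totals turned the sign (0.16). It was also lost on leaving out any 1 library of P0 or P3, or E16.5 library 1 or 3 (adjusted p 0.0507 to 0.0993).

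Fgf9 in the testis is best known from Sertoli cells. The 6 Sertoli cell markers summed to 2121 to 3863 at P0, and to 693.0 to 1091, 912.3 to 1744 and 796.4 to 1316 in the E13.5, E16.5 and P3 libraries. Their sum was thus highest at P0 and the Fgf9 level at P3, where 5 of the 6 markers exceeded 3 reads in every library. Their part in the Fgf9 level was not tested.

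Fgf8 (ENSMUSG00000025219, chr19:45736798-45742915, minus strand), a ligand of embryonic patterning, had 105.6, 69.6 and 93.6 normalized counts at E13.5 and 159.4, 134.8 and 139.3 at E16.5. The P0 values were 83.0, 88.0 and 76.3, and those of P3 were 18.4, 27.5 and 31.4. E16.5 lay above every other stage and P3 below, while E13.5 and P0 overlapped. From E13.5 to E16.5 it rose by 0.70 (SE 0.254, limma adjusted p = 0.0186), a call lost without E13.5 library 3 (adjusted p = 0.0848) or E16.5 library 1 (0.0606), within a range of 0.00037 to 0.0848 over alternatives. From E16.5 to P0 it fell by 0.80 (adjusted p = 0.0121). That fall depended on the scaling, being -0.55 by median-of-ratios factors (adjusted p = 0.0713) and -0.14 by equal totals (0.619). It was also lost without E16.5 library 4 and P0 library 1 together (adjusted p = 0.0545). The fall of 1.67 from P0 to P3 (SE 0.254, limma adjusted p = 1.57e-05) was called in all alternatives, as were the falls from E16.5 and E13.5 to P3 (-2.47 and -1.77).

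Fgf4 (ENSMUSG00000050917, chr7:144847367-144865243, plus strand), a ligand of pluripotent cells, had 25.3, 12 and 14.7 normalized counts at E13.5 and 7.63, 2.79 and 3.17 at E16.5. It had 14.6, 5.43 and 11.1 at P0. At P3 it was at 0, 1.96 and 2.02, that is, at or under 3 reads in each library, and 3 reads correspond to a mean of 2.96 normalized counts there. The E13.5 mean was therefore at least 5.85-fold higher than at P3 and the P0 mean at least 3.50-fold higher, for counting error only. E13.5 lay above E16.5 in all libraries, and the fall of 1.77 (SE 0.559, limma adjusted p = 0.00844) was lost only with a pseudocount of 0.1 (adjusted p = 0.0952; over all alternatives 0.00125 to 0.0952). P0 and E16.5 overlapped, and their difference of 1.05 had a 95% interval from -0.13 to 2.24 (limma adjusted p = 0.115), though median-of-ratios factors (1.29) and equal totals (1.66) called it. Levels of this size rest on 3 to 28 reads a library from E13.5 to P0.

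Among the receptors, Fgfr2 was the leading transcript at E13.5 and fell 8.62-fold by E16.5, after which Fgfr1 led. Fgfr3 and Fgfr4 were higher after birth than at E16.5. Fgfr2 (ENSMUSG00000030849, chromosome 7, minus strand) encodes a receptor widely used by epithelia and by Sertoli cell precursors. Its GENCODE model spans chr7:130162451-133123350, while the RefSeq gene ends at 130266808. A share of 3.04% of its exon bases is also exon of Ctbp2, and 2.47% of its 50-base words recur in other genes' transcripts. It had 3745, 3383 and 3228 normalized counts at E13.5 and 313.9, 477.0 and 410.0 at E16.5. It had 299.2, 266.3 and 246.6 at P0 and 231.6, 219.0 and 328.0 at P3. Every E13.5 library was above every later one, and P3 overlapped both E16.5 and P0, which did not overlap each other. The fall to E16.5 was -3.12 (SE 0.163, limma adjusted p = 1.91e-11) and that from E13.5 to P3 was -3.75 (adjusted p = 3.77e-12), a mean 13.3 times lower, and both were called in all alternatives. A further drop from E16.5 to P0 of -0.55 (limma adjusted p = 0.00818) was lost with median-of-ratios factors (adjusted p = 0.121) and without E16.5 library 3 (0.0525), and its sign turned with equal library totals (0.12; adjusted p = 0.553, the range over alternatives being 0.00048 to 0.553). Between P0 and P3 the difference was -0.08, with a 95% interval of -0.42 to 0.27 (limma adjusted p = 0.665). Median-of-ratios factors (-0.52) and equal totals (-0.92) each called a fall there. The sum of the 5 endothelial cell markers was also highest at E13.5, through Pecam1 alone. It was 4429 to 5192 there, 729.7 to 890.8 at E16.5, 1118 to 1314 in the newborn libraries and 592.1 to 747.0 in those of P3. At E13.5 Pecam1 made up 97.6% to 97.7% of that sum, 3 of the 5 markers exceeded 3 reads in every library, Emcn was at 0 and Kdr had 0 to 6.33 normalized counts. All markers but Pecam1 were lower at E13.5 than at E16.5. Tek had 86.2 to 107.7 against 342.7 to 418.4, and Cdh5 had 4.22 to 16.8 against 25.8 to 35.6. The part of such cells in the Fgfr2 level was not tested.

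Fgfr1 (ENSMUSG00000031565, chr8:25513654-25575718, plus strand), a broadly expressed receptor, changed least. It had 1113, 1076 and 962.2 normalized counts at E13.5 and 687.1, 787.6 and 682.2 at E16.5. It had 885.0, 920.5 and 971.6 at P0 and 605.6, 699.2 and 761.2 at P3. E13.5 and P0 overlapped in a higher band, and E16.5 and P3 overlapped in a lower one. The genotype field divides the stages in the same way, and its part in the Fgfr1 level was not tested. Fgfr1 fell by 0.55 to E16.5 (SE 0.104, limma adjusted p = 0.000145), rose by 0.37 to P0 (adjusted p = 0.00617) and fell by 0.43 to P3 (adjusted p = 0.00132). With equal library totals the first of these was -0.04 (adjusted p = 0.743; over alternatives 1.32e-06 to 0.743), while the other 2 kept their call in all alternatives. Between E13.5 and P0 the difference of -0.18 was not called (adjusted p = 0.116), and its sign turned under 3 scalings. Of these, median-of-ratios factors (0.30, adjusted p = 0.0138) and equal totals (0.99, adjusted p = 4.3e-07) called P0 higher, and TMM factors did not (0.022, adjusted p = 0.844).

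Fgfr3 (ENSMUSG00000054252, chr5:33721674-33737068, plus strand), a receptor best known for restraining bone growth, had 231.2, 173.0 and 183.0 normalized counts at E13.5 and 109.7, 182.2 and 115.5 at E16.5. It had 267.9, 340.2 and 300.7 at P0 and 267.5, 245.5 and 306.7 at P3. Both postnatal stages lay above both fetal stages in every library and overlapped each other, their difference of -0.15 being called only by median-of-ratios factors (-0.59) and equal totals (-0.99). The P0 mean was 2.23 times that of E16.5 (limma adjusted p = 6.70e-05) and the P3 mean 2.01 times (adjusted p = 0.000185), and both rises were called in all alternatives. The 2 fetal stages overlapped through E16.5 library 3, and the fall of 0.55 between them (adjusted p = 0.0171) was lost in 7 of 25 alternatives, among them median-of-ratios factors, equal library totals and leaving out E13.5 library 1 (0.0798) or E16.5 library 1 (0.0821) or 4 (0.0715), with a range of 0.00111 to 0.834. The rise from E13.5 to P3, 0.48 (adjusted p = 0.0372), was lost in 6 of 25, among them leaving out E13.5 library 3 or 4 or P3 library 1 or 4, the range being 0.00185 to 0.125. An antisense gene, G630022F23Rik, covers 13.9% of its exon bases.

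Fgfr4 (ENSMUSG00000005320, chr13:55152640-55168759, plus strand), a receptor known in liver for bile acid control, was nearly absent at E13.5. It had 8.44, 0 and 3.15 normalized counts there and 16.2, 9.30 and 27.7 at E16.5. It had 89.3, 86.9 and 78.2 at P0 and 35.9, 55.0 and 58.7 at P3. No stage overlapped another, and P0 was highest in all libraries. It rose by 2.34 to E16.5 (SE 0.613, limma adjusted p = 0.00227) and by 2.32 to P0 (SE 0.613, adjusted p = 0.00371). The size of the first rise hung on single E13.5 libraries, being 3.08 without library 1 and 1.46 without library 3, and it ran from 0.99 with a pseudocount of 10 to 3.53 with one of 0.1, called in each of 23 alternatives. The latter was lost with a pseudocount of 0.1 (adjusted p = 0.111, the range being 2.88e-07 to 0.111). From P0 to P3 its difference was -0.78, with a 95% interval of -2.08 to 0.52 (limma adjusted p = 0.254), and 3 alternatives called it lower. The E13.5 level rests on 0 to 8 reads a library.

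**Figure D2:**
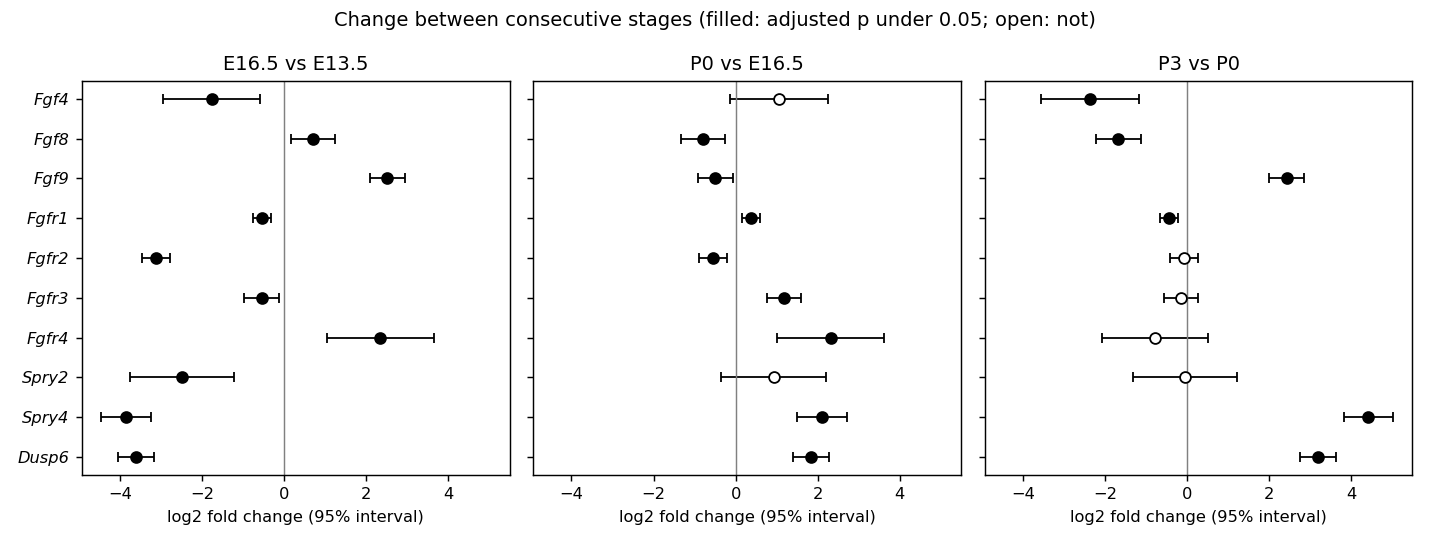
Log2 fold changes of the 10 genes between adjacent stages, 1 panel a comparison, with 95% intervals; filled points passed an adjusted p of 0.05. Spry4 and Dusp6 have the largest falls at E16.5 and the largest rises at P3, and 4 genes are open at P3.

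To compare receptors with each other, normalized counts were divided by exon length in kilobases. Summed over the 4 receptors, this level was 469.1 ± 37.4 (SD, n = 3) at E13.5 and 135.6 ± 17.2 at E16.5. It was 186.2 ± 4.93 in the P0 libraries and 147.1 ± 19.1 in those of P3. The sum was thus highest in all E13.5 libraries. Of it, Fgfr2 made up 71.3% ± 0.296, then 28.4% ± 2.65, 14.1% ± 1.67 and 17.0% ± 1.96 over the 4 stages in order. Fgfr1 made up 22.7% ± 0.843, 54.0% ± 3.54, 50.3% ± 2.15 and 47.5% ± 2.16 at the same stages. Fgfr3 went from 5.81% ± 0.545 and 13.8% ± 2.36 to 22.7% ± 2.12 and 26.0% ± 2.2. Fgfr4 had 0.224% ± 0.234, 3.81% ± 2.09, 12.9% ± 1.03 and 9.50% ± 1.65. The order was Fgfr2, Fgfr1, Fgfr3 and Fgfr4 at E13.5, and Fgfr1, Fgfr3, Fgfr2 and Fgfr4 at P3, with no overlap of neighbouring shares at E13.5. These shares depend on no scaling between libraries, though they depend on the exon lengths used.

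**Figure D3:**
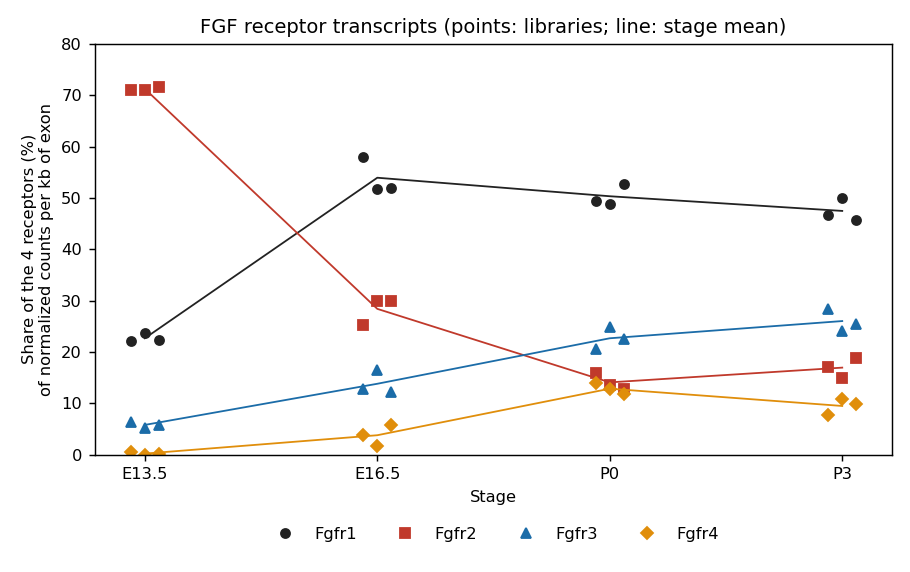
Share of each receptor, in percent, of the summed normalized counts per kilobase of exon of the 4 receptors, by stage. Points are libraries and lines join stage means; Fgfr2 drops from 71.3% at E13.5 to 14.1% at P0, and Fgfr1 makes up 47.5% to 54.0% from E16.5 on.

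The feedback inhibitors Spry4 and Dusp6 had the widest ranges of the members. Both fell more than 10-fold from E13.5 to E16.5, rose in part by P0, and by P3 stood above their E13.5 level. Spry2 fell at E16.5, and its later levels overlapped. Dusp6 (ENSMUSG00000019960, chr10:99263231-99267489, plus strand) encodes the phosphatase that removes phosphate from ERK. Its upstream window, shown above, holds the ETS core. It had 5685, 5292 and 5478 normalized counts at E13.5 and 314.9, 424.0 and 686.2 at E16.5. It had 1907, 1819 and 1176 at P0 and 14669, 14339 and 14575 at P3. No 2 stages overlapped. The fall to E16.5 was -3.60 (SE 0.207, limma adjusted p = 6.88e-11), a mean 11.5 times lower. It then rose by 1.82 to P0 (SE 0.207, limma adjusted p = 9.93e-07) and by 3.18 to P3 (SE 0.207, limma adjusted p = 4.75e-10). The P3 mean was 30.6 times that of E16.5 and 2.65 times that of E13.5 (log2 fold change 1.41, limma adjusted p = 1.25e-05). Each of its 6 pairwise differences was called in all 25 alternatives.

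Spry4 (ENSMUSG00000024427, chr18:38586247-38601415, minus strand), a Sprouty protein that restrains signalling from receptor tyrosine kinases to RAS, had 406.4, 401.5 and 336.5 normalized counts at E13.5 and 13.4, 28.8 and 41.9 at E16.5. It had 127.9, 126.6 and 87.4 at P0 and 2335, 2456 and 2459 at P3. As for Dusp6, no 2 stages overlapped. It fell by 3.85 to E16.5 (SE 0.283, limma adjusted p = 1.69e-09), rose by 2.1 to P0 (limma adjusted p = 6.97e-06) and by 4.42 to P3 (SE 0.283, limma adjusted p = 3.90e-10). Its P3 mean was 86.2 times that of E16.5 and 6.34 times that of E13.5. P0 lay below E13.5 by 1.75 (limma adjusted p = 2.10e-05), which was the only one of its differences lost in an alternative, with equal library totals (-0.59, adjusted p = 0.0751, the highest in a range from 2.25e-26).

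Spry2 (ENSMUSG00000022114, chr14:105891947-105896819, minus strand), another Sprouty protein, had 50.7, 46.8 and 35.8 normalized counts at E13.5 and 7.63, 1.86 and 19.8 at E16.5. It had 15.1, 22.8 and 8.21 at P0 and 10.7, 9.82 and 24.3 at P3. E13.5 lay above every later library, and the later stages overlapped. The fall to E16.5 was -2.49 (SE 0.602, limma adjusted p = 0.0012) and was called in all alternatives, though it was -1.75 without E16.5 library 3 and -3.18 without E16.5 library 4. The difference between P0 and E16.5 was 0.93, with a 95% interval of -0.35 to 2.2 (adjusted p = 0.194). E16.5 library 4, the highest of its stage, decided it: without that library the difference was 1.62 (adjusted p = 0.0261, the lowest over alternatives, where the highest was 0.788), and P3 was then also called above E16.5 (1.57, adjusted p = 0.0262). Equal totals called the first as well (1.55, adjusted p = 0.0336). By contrast, P3 differed from P0 by -0.05, with an interval of -1.33 to 1.23 (adjusted p = 0.943). Its lower levels at P0 and P3 than at E13.5 (-1.56 and -1.61, adjusted p = 0.0235 and 0.0251) were each lost in some alternatives, 6 of 24 at P0 and 7 of 24 at P3. Leaving out E13.5 library 1 or 3 ended both calls, P0 library 4 that of P0, and P3 library 1 or 3 that of P3. The highest adjusted p was 0.504 and 0.0852.

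Within E16.5 and within P0, the libraries with more Dusp6 and Spry4 were also those with more Sertoli and Leydig cell markers. At E16.5 the Sertoli sums in libraries 1, 3 and 4 were 912.3, 1292 and 1744 and the Leydig sums 623.1, 1236 and 7763, in the order of the Dusp6 and Spry4 values. At P0 the Sertoli sums were 3863, 3466 and 2121 and the Leydig sums 6201, 3169 and 1133, again in that order. Red blood cell sums kept it at both stages (1749, 1882 and 2416, then 2483, 1872 and 1562). Fibroblast, macrophage and mast cell sums kept it at P0 only, and endothelial and peritubular sums at neither stage (peritubular 1867, 1263 and 1253 at E16.5). Within E13.5 and within P3, Dusp6 and Spry4 themselves differed in their order of libraries, so no sum could follow both. At E13.5 the Sertoli sums (1091, 785.7 and 693.0) were in the order of Spry4. The Leydig sums there (729.4, 573.5 and 574.2) were in the order of Dusp6. At P3 neither sum was in the order of either gene. As both genes rose from E16.5 to P0, the mean Sertoli sum went from 1316 to 3150 and the mean Leydig sum from 3207 to 3501. At P3, where Dusp6 and Spry4 were highest, the Sertoli sums were 796.4 to 1316 and the Leydig sums 179.2 to 267.5, with 2 of the 6 Leydig genes, Insl3 and Lhcgr, at or under 3 reads in each library. The part of these cells in the levels was not tested. Without E16.5 library 4 and P0 library 1, which had the highest Leydig sums, the members called were 9 of 10 at E16.5, 6 of 10 from E16.5 to P0 and 6 of 10 from P0 to P3. Of 21163 genes then tested, 16554, 11063 and 15338 were called in these comparisons.

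**Figure D4:**
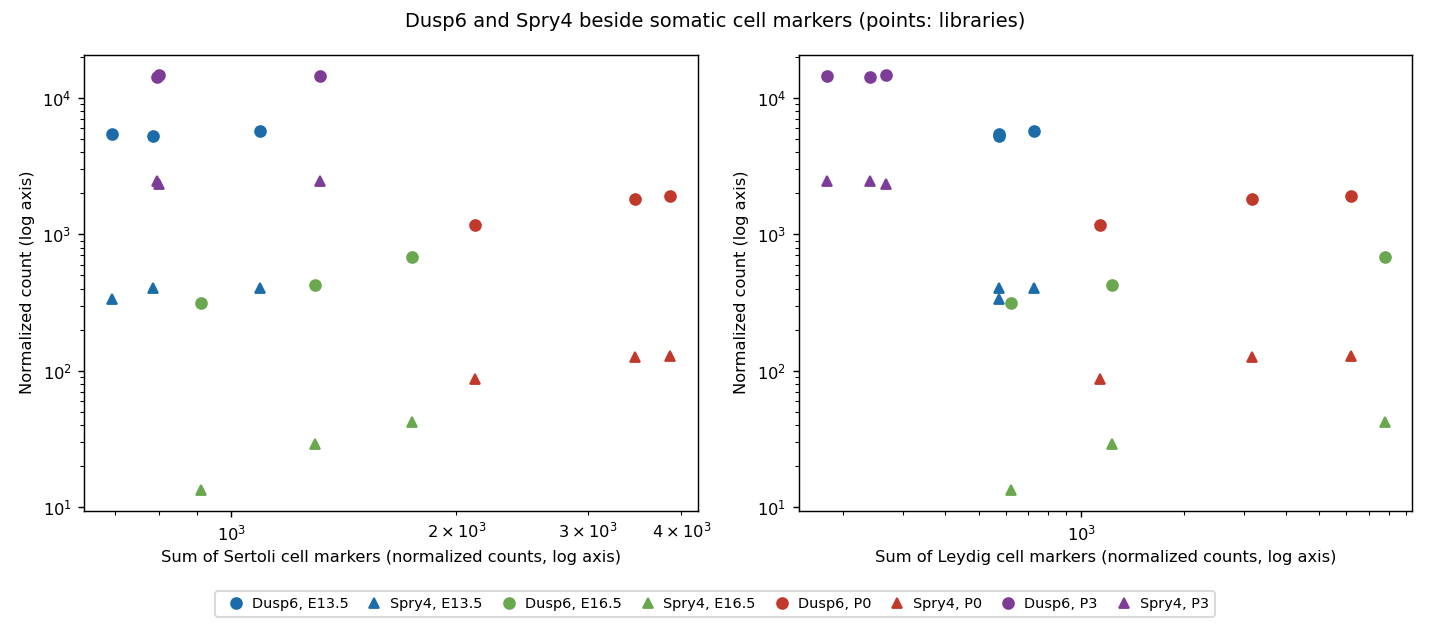
Normalized counts of Dusp6 (circles) and Spry4 (triangles) against the summed Sertoli cell markers (left) and Leydig cell markers (right), 1 point a library, all axes logarithmic. Within E16.5 and within P0 the points rise with both sums, and the P3 points lie highest, at Leydig sums of 179.2 to 267.5.

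Per kilobase of exon, Dusp6 was the most abundant of the 10 at each stage, with 1751 ± 62.9 (SD, n = 3) at E13.5 and 151.7 ± 60.9 at E16.5, then 521.7 ± 128 for P0 and 4638 ± 54.3 for P3. At E16.5 its libraries overlapped those of Fgf8, which came next at 107.0 ± 9.68. Fgfr2 was next at E13.5, at 334.3 ± 25.7, and Fgfr1 was next at P0, at 93.7 ± 4.41. At P3 the order was Dusp6, Spry4 (508.2 ± 14.8), Fgf9 (96.5 ± 4.44), Fgfr1 (69.7 ± 7.93) and Fgfr3 (38.2 ± 4.33), with no overlap between neighbours. Fgfr2, Fgf8 and Fgfr4 followed and overlapped in turn, and Fgf4 was lowest.

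Over non-adjacent stages, all 10 members differed between E13.5 and P3, against 70.4% of all genes, with 5 higher and 5 lower at P3 where 39.2% and 31.2% of all genes were. Their libraries did not overlap in any of the 10, as in 71.3% of all genes. The 5 higher at P3 were Fgf9, Fgfr3, Fgfr4, Spry4 and Dusp6, and the 5 lower were Fgf4, Fgf8, Fgfr1, Fgfr2 and Spry2. Between E13.5 and P0, 7 of 10 differed against 86.1% of all genes, 3 of them higher and 4 lower, where 45.7% and 40.5% of all genes were. Libraries of these 2 stages did not overlap for 7 members and 88.1% of all genes. The split was 4 higher and 3 lower with median-of-ratios factors, beside 12134 and 7360 of 22735 genes. By equal totals it was 5 and 2, beside 15372 and 4550 of 23221. Between E16.5 and P3, 8 of 10 differed against 69.5% of all genes, 5 higher and 3 lower beside 34.2% and 35.2% of all genes. With median-of-ratios factors the split was 4 and 4, beside 6634 and 9194 of 22735 genes. In this comparison 7 members and 71.6% of all genes had no overlap of libraries. Of the last set, the call of Fgf4 (-1.31, adjusted p = 0.0471) was lost in 15 of 23 alternatives (0.0311 to 0.222), including leaving out any E13.5 library, E16.5 library 1 or 4, P0 library 1 or 4 or P3 library 1, and that of Fgfr4 (1.53, adjusted p = 0.0354) in 7 of 24 (0.000661 to 0.259), including leaving out E16.5 library 1 or 3 or P3 library 3 or 4.

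The wider pathway was read from 5 lists of 86 further genes, of which 85 were in the table and 83 passed the filter on low values. The other feedback inhibitors mostly moved as Spry4 and Dusp6 did. Of the 12 tested, 10 fell and 2 rose at E16.5 (median log2 fold change -1.67, all genes 0.31), and 12 of 12 rose from P0 to P3 (median 1.83, all genes 0.05). With median-of-ratios factors this last split was 10 higher and 0 lower, and by equal totals 9 and 1 (median 0.99). Dusp4, an ERK phosphatase of the nucleus, had 3789 ± 119 normalized counts at E13.5 and 51.8 ± 15.1 at E16.5, so that it fell by 6.20 on the log2 scale (SE 0.159, limma adjusted p = 4.72e-15). Spred2, a Sprouty-related inhibitor, went from 1051 ± 137 to 125.0 ± 4.19 over the same interval, and rose from 154.8 ± 8.98 at P0 to 893.8 ± 90.8 at P3 (log2 fold change 2.52, limma adjusted p = 2.28e-11). Spry1, the third Sprouty gene measured, rose from 810.5 ± 79.7 to 4415 ± 326 between P0 and P3 (2.45, limma adjusted p = 3.73e-13). Dusp2 and Nf1 were the exceptions that rose at E16.5, by 1.47 and 0.75. From E16.5 to P0, 8 rose and 2 fell, Il17rd by 1.07 and Dusp9 by 0.56.

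Of 10 transcriptional targets of the pathway, 8 fell and 1 rose at E16.5 (median -1.45). Etv5, an ETS factor needed by spermatogonial stem cells, went from 20956 ± 1113 normalized counts at E13.5 to 1049 ± 262 at E16.5 (log2 fold change -4.35, limma adjusted p = 4.11e-14). Etv1, a related factor, fell by 5.30 (limma adjusted p = 6.20e-15) and fell again from P0 to P3, by 2.98, to 36.2 ± 4.21. From E16.5 to P0, 8 rose and none of the other 2 passed the test, and from P0 to P3, 6 rose and 2 fell (median 1.66; 5 and 4 by equal totals). Ccnd1, cyclin D1 of the cell cycle, rose from 313.0 ± 30.8 at P0 to 7383 ± 440 at P3 (4.56, limma adjusted p = 5.02e-14), and Etv4 rose from 139.6 ± 26.0 to 2158 ± 53.1 (3.96, limma adjusted p = 5.91e-13). The ETS factors of this list therefore parted from P0 to P3, where Etv4 and Etv5 rose and Etv1 fell.

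Falling at E16.5 and rising from P0 to P3 is a pattern over comparisons that share no library, and 25.6% of all genes tested showed it. Among the 10 members it was shown by 2, Spry4 and Dusp6. It was shown by 10 of the 12 other feedback inhibitors, 14 of the 20 adaptors and RAS-MAPK kinases, 7 of the 23 co-receptor and heparan sulfate genes, 4 of the 10 targets (Etv4, Etv5, Phlda1 and Ccnd1) and 0 of the 18 other FGF ligands. The share over all genes includes many of low level. Of the 13135 genes that averaged 100 or more, 6600 fell at E16.5 (median -0.27) and 7843 rose from P0 to P3 (median 0.58). The share of those genes with both changes was not counted.

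**Figure D5:**
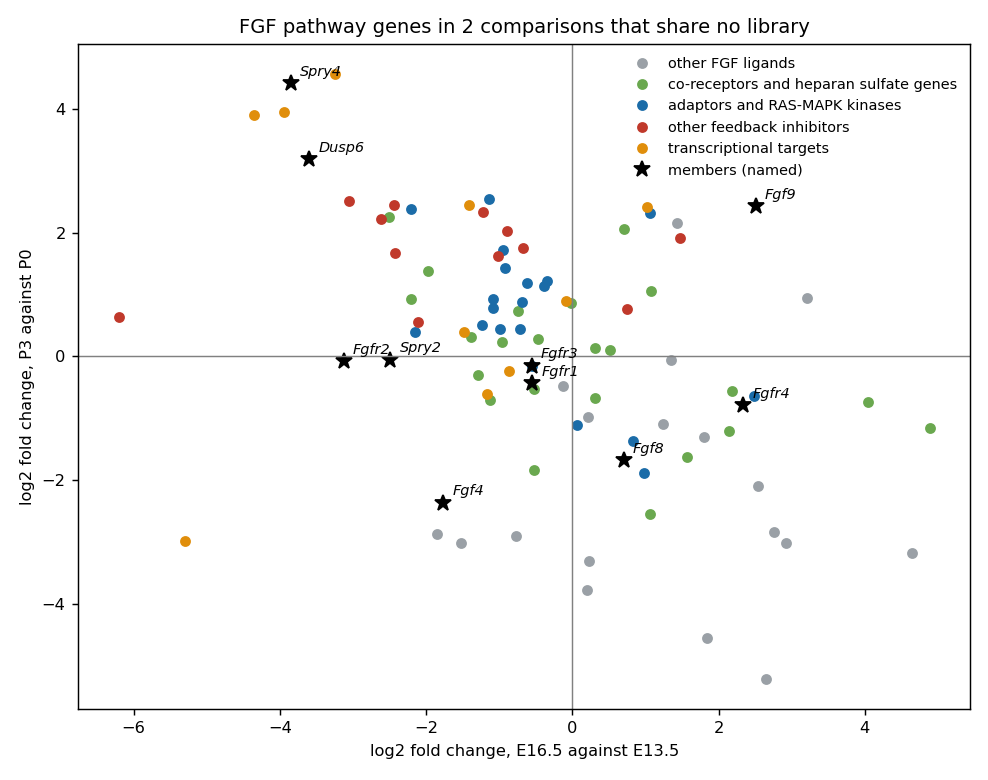
Log2 fold change from P0 to P3 against that from E13.5 to E16.5 for the 10 members and the 83 pathway genes tested, coloured by list. Feedback inhibitors, with Spry4 and Dusp6, lie mostly at the upper left, and other FGF ligands mostly at the lower right.

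Among 20 adaptors and kinases, 4 rose and 15 fell at E16.5 (median -0.70), and 15 rose and 4 fell from P0 to P3 (median 0.83). Map2k1, which encodes the kinase MEK1, went from 6063 ± 170 to 1318 ± 161 at E16.5 and from 1504 ± 120 at P0 to 7870 ± 359 at P3, both called (-2.21 and 2.39). Mapk3, encoding ERK1, went the other way at E16.5, from 2811 ± 47.1 to 15839.5 ± 1151 (2.49, limma adjusted p = 5.04e-15). Braf, a RAF kinase, fell from 1729 ± 118 at P0 to 471.9 ± 61.3 at P3 (-1.88). From E16.5 to P0, 6 rose and 10 fell, a split that became 8 and 8 with TMM factors, 10 and 6 with median-of-ratios factors and 14 and 3 with equal library totals. From P0 to P3 these last 2 gave 11 and 5, and 8 and 9, and at E16.5 equal library totals gave 5 and 11.

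Most of the other FGF ligands were higher at P0 than at E16.5 or P3. Of 18 tested, 11 rose and 3 fell at E16.5 (median 1.39, or 1.2 with the 4 genes that never exceeded 3 reads at 1 of the stages set to their bounds; 13 and 1 by equal totals), 13 rose and 1 fell from E16.5 to P0 (median 1.51), and 1 rose and 14 fell from P0 to P3 (median -2.85). Fgf12, an intracellular member of the family, went from 19.1 ± 2.90 normalized counts at E16.5 to 495.6 ± 41.5 at P0 and back to 116.1 ± 15.3 by P3, the rise to P0 being 4.64 (limma adjusted p = 1.50e-07). Fgf10, a mesenchymal ligand, fell from 239.7 ± 34.4 at P0 to between 15.7 and 17.2 at P3 (-3.78, limma adjusted p = 8.32e-09). Fgf3 was the 1 that rose at P3, from 76.9 ± 4.51 to 346.8 ± 9.42 (2.16, limma adjusted p = 3.52e-06). Beside this list, the 5 peritubular cell markers summed to 3699 to 4160 at P0 and the 6 interstitial fibroblast markers to 3472 to 3706, above the 797 to 916 and 1806 to 2325 of P3, and the 4 mast cell markers summed to 1170 to 2434 at P0 and were all at 0 at E13.5. The part of such cells in the ligand levels was not tested.

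Co-receptors and heparan sulfate genes were mixed, with 9 rising and 11 falling at E16.5 (12 and 8 by equal totals), 15 rising and 4 falling at P0 (19 and 2), and 10 rising and 10 falling at P3. The last split was 7 and 11 with TMM factors, 7 and 14 with median-of-ratios factors and 4 and 16 with equal library totals. Sdc1, a syndecan, had means of 2324 ± 96.0, 408.8 ± 6.56, 825.2 ± 59.6 and 3914 ± 279 over the 4 stages in order, with a called fall at E16.5 (-2.50) and rise at P3 (2.24). Sdc4, another syndecan, fell from 28627 ± 2137 at E16.5 to 4856 ± 86.2 at P0 and rose to 20222 ± 393 at P3. Hs3st1, a heparan sulfate sulfotransferase, rose from 12.1 ± 2.36 to 212.6 ± 24.9 at E16.5 (4.04, limma adjusted p = 1.2e-11).

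The genes whose profile over the 12 libraries was most like that of a member were sought for Fgf9, Fgfr2 and Dusp6, among 12203 genes, by Pearson correlation of log2 values. The libraries share their stage, so these are descriptions. For Fgf9 the closest were Dlx3 (r = 0.992), Mmp9 (0.990) and Tuba4a (0.989), with Mmp9 going from a mean of 38.2 normalized counts at E13.5 to 9236 at P3. For Fgfr2 they were Ring1 (0.997), Rbm33 (0.996) and Six4 (0.996), the last with a mean of 3096 at E13.5 and 279.1 at P3. For Dusp6 they were Mmd (0.996), Zfp644 (0.994) and Tmem59 (0.993), Mmd having means of 671.0, 59.2, 159.5 and 1476 over the 4 stages.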

How the data were processed

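Germ cell RNA was measured in 12 libraries. Per the submitters' processing notes, bcl2fastq 2.20, cutadapt 1.18, HISAT2 2.1.0, featureCounts 1.5.2 and DESeq2 1.26.0 were used, with builds mm10 and GRCm38. Strand setting and the treatment of multi-mapping reads are not given in the sources used here. The deposited signal holds, for each gene, its reads over the size factor of the library. In every library 100% of values were whole reads over that factor (tolerance 0.001), which gave back the reads. Column heads carry 1, 3 and 4 where the titles carry other replicate numbers, so columns were mapped to stages and not to samples. Symbols matched 55141 of 55487 identifiers (99.4%), and positions and lengths are from GENCODE M21 on GRCm38.

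limma 3.58.1 (R 4.3.3; lmFit, then eBayes with a mean trend) was run on log2(normalized count + 1). Genes entered if 3 or more libraries reached 10 normalized counts. There were 6 pairwise comparisons and an F-test, with 8 residual degrees of freedom and Benjamini-Hochberg adjustment over all 22384 genes. The code was tested on simulated data. Alternatives were 4 other scalings, a pseudocount of 0.1 or 10, an unfiltered table, genes averaging 100 or more, edgeR 4.0.16 and DESeq2 1.42.0 on the recovered reads, the 2 stages alone, leaving out each library and, added after the data were seen, leaving out E16.5 library 4 and P0 library 1 together and a block by column number. Floors (3 reads) cover counting error only, as amplified reads carry no molecular identifiers. The members and lists were chosen with earlier results of these data known. Pathway genes were named, per list and comparison, from called genes whose higher stage averaged 100 or more. The libraries of the 2 stages also had to show no overlap. Those named are among the 2 such genes with the largest change in each direction. Their values at other stages and the pattern of falling and rising were chosen after values were seen. Genes of like profile were sought for 1 member per role. Sequences are from RefSeq.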

Additional observations from a re-analysis of the deposited data

How the results depend on the processing

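Of 60 differences of single members, 35 kept direction and call in every alternative; of 1472 values, 71 lost the call and 14 gained it with the sign kept, and 16 changed sign, of which 3 were called in the new direction, 2 lost an earlier call and 11 were called neither way. For the named pathway genes 1193 of 1195 values kept both; the exceptions, with equal library totals, were Fgf5 at E16.5 (no longer called) and Dusp9 from E16.5 to P0 (0.10, its call lost). The counts of members called moved by over 1.5 times only where a mean of at least 100 left 6 members to test: 6 from E13.5 to E16.5, 5 from E16.5 to P3, 6 from E13.5 to P3 and 6 by the F-test. Leaving out 1 library gave 8 to 10 members from E13.5 to E16.5, 6 to 9 from E16.5 to P0, 6 from P0 to P3, 6 to 7 from E13.5 to P0, 6 to 8 from E16.5 to P3 and 8 to 10 from E13.5 to P3; for the pathway lists it gave 70 to 75, 62 to 68 and 71 to 75 over the adjacent stages.

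The sign changes came from the scaling or from leaving out 1 library. Between E13.5 and P0, Fgf4 turned to 0.37 with equal library totals. Fgf8 turned to 0.10 with TMM factors, 0.37 with median-of-ratios factors and 1.06 with equal library totals. Fgfr1 turned to 0.022, 0.30 and 0.99 with the same 3. P0 was then called higher for Fgf8 at 1.06 (adjusted p = 0.00094) and for Fgfr1 at 0.30 (0.0138) and 0.99 (4.3e-07). With equal library totals, Fgf9 (0.16) and Fgfr2 (0.12) also turned between E16.5 and P0, and neither was then called (adjusted p = 0.456 and 0.553). On leaving out 1 library, 4 small differences took either sign. Fgf8 from E13.5 to P0 ran from -0.27 to 0.027 (positive without E13.5 library 1). Fgfr1 from E16.5 to P3 ran from -0.14 to 0.024 (0.0021 without E16.5 library 3, 0.024 without P3 library 1). Fgfr2 from P0 to P3 ran from -0.26 to 0.030 (positive without P3 library 3). Spry2 from P0 to P3 ran from -0.44 to 0.27 (0.27, 0.12 and 0.17 without P0 library 3, P3 library 1 and P3 library 3). The median of all genes shifts by 0.53, 0.69 and -0.91 over the adjacent stages with equal library totals, and by 0.24, 0.27 and -0.47 with median-of-ratios factors. The cause was not tested. Depth limits Fgf4, Fgfr4 at E13.5 and Spry2. The column numbers (1, 3 and 4) recur at each stage but differ from the replicate numbers in the titles. With them as a replicate block, added after the data were seen, 10, 7 and 6 members were called over the adjacent stages; Fgf4 from E16.5 to P3 (adjusted p = 0.0585), Fgf9 from E16.5 to P0 (0.0579) and Fgfr3 from E13.5 to P3 (0.0505) lost their calls, and no other member did. Deviations of like-numbered libraries from their stage means correlated at -0.036 to 0.042 over 18 pairs, none over 0.1, and 2 of 12 libraries correlated best with their own number. These correlations run over all genes tested, so a link in a small part of the genes was not tested. What the numbers stand for is not given.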
